A study of Homo sapiens with 4 samples.

Results

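The smallest domains in 4 lists of topologically associating domains are described here, those whose listed end lies 50 kb after the listed start. Members were chosen by that length alone, on the 22 autosomes, and they numbered 4681 of the 26136 domains in the 4 lists. After the numbering of the lists was aligned, they took up 2083 distinct positions. Since the length chose them, their number and share are a description and carry no test.

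Topologically associating domains are stretches of a chromosome whose parts contact each other more often than they contact the sequence on either side. Their borders are often held by the DNA-binding protein CTCF and by cohesin, the ring-shaped complex that extrudes loops of chromatin, and long domains commonly hold smaller ones nested inside. BAF47, the product of SMARCB1, belongs to the core of the BAF (SWI/SNF) complex, which uses ATP to slide and evict nucleosomes at enhancers and promoters. Epithelioid sarcomas commonly lack it.

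All samples came from the epithelioid sarcoma line VA-ES-BJ and had been infected with lentivirus and selected with blasticidin at 10 µg/ml. The times are described in more than 1 way, with 48 h given once for the exposure to virus and once for the selection, and 5 days once for the selection and once for the growth after it. The virus carried an empty vector in 2 samples (empty vector A and B) and, in the other 2 (BAF47 A and B), a vector for constitutive expression of BAF47. Chromatin was fixed in 1% formaldehyde and read by Hi-C, in which crosslinked chromatin is cut, here with CviQI, CviAII and BfaI, and ligated so that neighbours in the nucleus are sequenced as pairs. The sources used here give neither the promoter of the BAF47 vector nor whether the letters mark separate infections. P-values therefore reflect the spread among these samples alone, and that spread may be technical. The lists hold a chromosome, a start and an end for each domain and no expression value or read count, so neither the cell line nor the presence of BAF47 was checked against the labels, and the depth of each library is unknown.

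Empty vector A listed 1187 domains of 50 kb, empty vector B 1161, BAF47 A 1142 and BAF47 B 1191. The 2 BAF47 lists thus held the lowest and the highest number, and the vectors overlapped. They made up 18.2% of the domains of empty vector A, 17.9% of empty vector B, 17.5% of BAF47 A and 18.1% of BAF47 B. In length they were a small part, covering 59.35 Mb, 58.05 Mb, 57.1 Mb and 59.55 Mb in the same order, or 2.60% to 2.73% of the listed length. The next class up, domains of 100 kb, was about as numerous, with 1165, 1126, 1147 and 1193 members, and served for comparison because it is the most alike in size.

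What a listed length of 50 kb spans depends on how the end column was written. Of the 26048 unlisted stretches between neighbouring domains, 22759 (87.4%) were 50 kb long, 0 had a length of 0 and 0 were 100 kb long, while 1839 were 150 kb long. If the end column gives the position after the last bin of 50 kb, the members are single bins and most neighbours are parted by 1 unlisted bin. If it gives the start of the last bin, the members span 2 bins and most neighbours touch. The lists do not say which, and lengths are therefore given as listed throughout. Positions are listed positions too: all 20 lists of the 5 acrocentric chromosomes start at 0, so the numbering is not that of the genome build, and no gene or sequence was placed on it.

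On chromosomes 9 and 20 the numbering of some lists stepped by 1 bin, and the 50 kb domains followed the step. The step itself was found without them, from the edges of domains of 100 kb or more, with empty vector A as the reference. On chromosome 9, BAF47 A sat 1 bin higher from 51.15 Mb and BAF47 B from 38.65 Mb, with no member of either list in between. On chromosome 20, BAF47 B sat 1 bin lower from 17.25 Mb. Beyond the step on chromosome 9, 21 of 30 members of BAF47 A (70.0%) matched a 50 kb domain of empty vector A when moved by 1 bin, and 1 matched as listed. In BAF47 B, 21 of 35 (60.0%) matched when moved by 1 bin and 0 as listed. Empty vector B, which showed no step, matched as listed in 25 of 37 (67.6%). The 3 lists therefore reached similar shares, each at its own offset.

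On chromosome 20, 18 of 26 members of BAF47 B (69.2%) matched when moved by 1 bin the other way and 2 matched as listed. Without any move, 18 of 26 members of empty vector B (69.2%) and 17 of 23 of BAF47 A (73.9%) matched. Before the step on chromosome 9, 5 of 6, 7 of 9 and 6 of 11 members of empty vector B, BAF47 A and BAF47 B matched as listed, and on chromosome 20 the counts were 3 of 4, 3 of 4 and 5 of 6. On the other 20 of the 22 chromosomes, an offset of 0 matched the most 50 kb domains in all 3 lists. Positions below are on the aligned numbering. Smaller counts of matches stood 2 bins away from the best offset, which is the spacing of adjoining 50 kb domains: beyond the step on chromosome 9, empty vector B matched in 7 of 37 members 2 bins lower, in 7 of 37 2 bins higher and in 0 of 37 at 1 bin to either side.

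**Figure D1:**
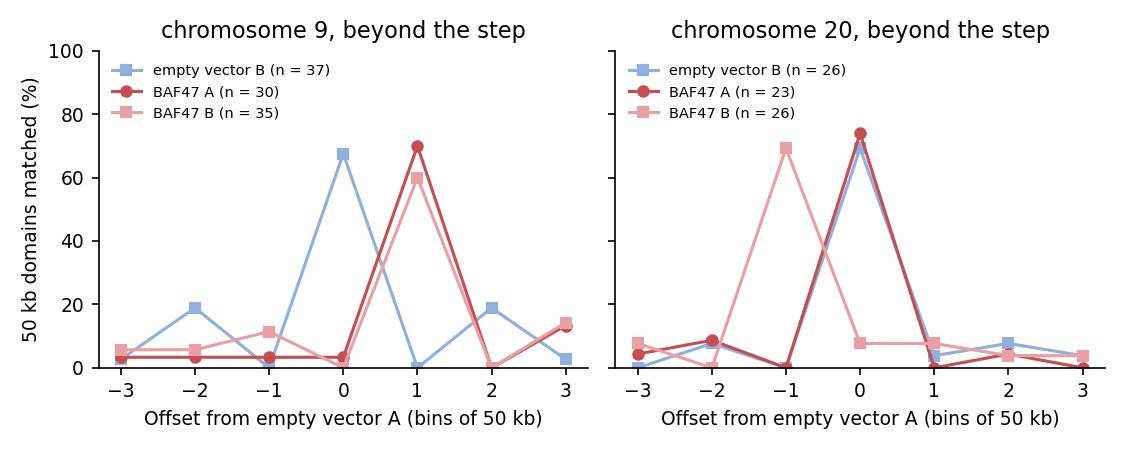
The share of 50 kb domains beyond the step that matched one of empty vector A (percent, vertical axis) is plotted against the offset in bins of 50 kb (horizontal axis) for chromosomes 9 and 20, with 1 line per list and its number of members in the key. On chromosome 9 the lines of BAF47 A and B peak at 1 (70.0% and 60.0%) and that of empty vector B at 0 (67.6%), and on chromosome 20 the line of BAF47 B alone peaks at -1 (69.2%).

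The 50 kb domains were spread unevenly over the chromosomes. They were most common on chromosome 19, where they made up 29.4% of the domains of empty vector A, 26.6% of empty vector B, 24.7% of BAF47 A and 29.3% of BAF47 B (27.5% ± 2.27, SD, n = 4). Chromosome 17 followed with 26.2%, 24.3%, 22.9% and 23.6% (24.2% ± 1.42), and chromosome 14 with 18.0%, 22.5%, 19.4% and 21% (20.2% ± 1.95). The lowest mean shares were on chromosome 21, with 14.6%, 9.33%, 9.09% and 9.88% (10.7% ± 2.62), on chromosome 13, with 8.33%, 13.5%, 11.7% and 13.7% (11.8% ± 2.48), and on chromosome 4, with 14.7%, 13.1%, 13.3% and 14.1% (13.8% ± 0.74). The ranges of chromosomes 17 and 19 lay above those of chromosomes 4, 13 and 21 with no overlap. These chromosomes were picked by the same shares, so the lack of overlap is a description only. Chromosome 21 held 12, 7, 7 and 8 members and chromosome 13 held 15, 25, 21 and 25.

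Per 10 Mb from the first to the last listed position, unlisted stretches included, chromosome 19 held a mean of 9.18 members and chromosome 17 held 8.66, against 2.25 on chromosome 13, 2.49 on chromosome 21 and 2.82 on chromosome 4. By the share of listed domains, the vectors overlapped on most chromosomes. Both BAF47 lists lay above both empty vector lists on 2 of the 22 chromosomes (7 and 15) and below both on 2 (11 and 17). On chromosome 7, empty vector A and B listed 46 and 51 members and BAF47 A and B listed 68 and 52, so that 1 list makes most of that difference. On chromosome 11 the counts were 62, 63, 53 and 47.

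**Figure D2:**
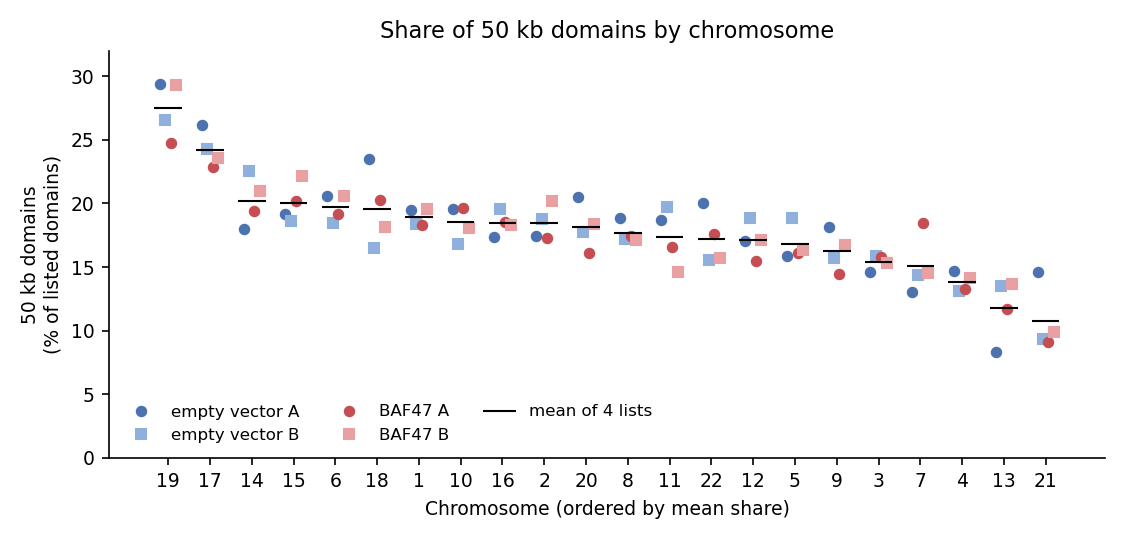
The share of 50 kb domains among the listed domains of each chromosome (percent, vertical axis) is shown for the 22 autosomes in order of the mean (horizontal axis), with 1 point per list and a line at the mean of the 4 lists. Chromosomes 19 (27.5%) and 17 (24.2%) stand highest and chromosomes 13 (11.8%) and 21 (10.7%) lowest, and the colours of the vectors are mixed within most chromosomes.

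Near the first and last listed positions of the chromosomes, which need not be their ends, the 50 kb domains were somewhat more frequent than all domains together. The 100 kb domains were too. Within 5 Mb of the first or last listed position lay 12.4%, 11.3%, 12% and 12.7% of the members (empty vector A, empty vector B, BAF47 A, BAF47 B), against 11%, 10.8%, 10.9% and 11% of all domains. Among 100 kb domains the share was 12.4%, 12.3%, 11.9% and 12.2%. The difference between the 50 kb and the 100 kb class was -0.14 percentage points ± 0.60 (SD over 4 lists), below 0 in 2 of 4 lists (exact sign-flip permutation test over the lists, two-sided, p = 0.75). The lists share many domains, so the 4 values are not independent, here and in the sign-flip tests over lists below.

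In windows of 2 Mb, the 50 kb domains ranged from none to dense groups. Of 1355 windows, 453 (33.4%) held none in any list, the median sum over the 4 lists was 3, and the highest was 30. The highest sum was at 26 to 28 Mb on chromosome 1, with 9 members in each of empty vector A, empty vector B and BAF47 B, and 3 in BAF47 A. There, BAF47 A stood apart from the other lists. It drew single domains at 26 to 26.15 Mb, 26.65 to 26.75 Mb and 27.1 to 27.25 Mb over places where each of the other 3 lists drew 50 kb domains. Next came 42 to 44 Mb on chromosome 19 with 6, 6, 4 and 5 members, then 26 to 28 Mb on chromosome 20 with 6, 5, 4 and 6. Chromosome 19 at 10 to 12 Mb held 5, 2, 6 and 7, and chromosome 17 at 18 to 20 Mb held 3, 5, 5 and 6. In these 5 windows BAF47 A was the lowest list in 3 and empty vector B the lowest in 1.

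The share with a 50 kb neighbour was of similar size for members and for longer domains. A neighbour was counted where 50 kb of unlisted sequence or less lay between. A 50 kb neighbour was found for 29.7% of the members of empty vector A, 25.6% of empty vector B, 26.7% of BAF47 A and 30.6% of BAF47 B. Domains of 100 kb or more had a 50 kb neighbour in 26.4%, 26.9%, 27.1% and 27.1%. The BAF47 lists lay both above and below the empty vector lists (28.7% ± 2.79 against 27.6% ± 2.88, SD, n = 2 each, exact permutation test, two-sided, p = 0.67). With 2 samples against 2, that test cannot give a p below 0.33. Domains of 100 kb adjoined their own class more often, in 30.0%, 30.1%, 32.3% and 33.4%. The difference, 50 kb minus 100 kb, was -3.32 points ± 2.29, below 0 in 4 of 4 lists (exact sign-flip test, p = 0.13, the smallest that 4 lists allow). A neighbour could be counted only across an unlisted stretch of 50 kb, and members had fewer of these. Such stretches were 81.7%, 81.7%, 83.8% and 84.3% of those beside members, against 90.0%, 89.2%, 89.5% and 90.3% beside 100 kb domains. Beside domains of 100 kb or more they were 87.8% to 88.8%. The part of this in the neighbour shares was not tested. The next listed domain beside a member had a median length of 150 kb in every list, against 200 kb over all domains and 200 kb, 150 kb, 200 kb and 150 kb beside 100 kb domains.

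Runs of adjoining 50 kb domains were short. Empty vector A had 160 runs of 2 or more, empty vector B 141, BAF47 A 140 and BAF47 B 167, and of these 27, 15, 23 and 28 held 3 or more. Most members stood alone, 835, 864, 837 and 826 of them in the same order. Over the 4 lists there were 347 distinct runs, of which 31 (8.93%) were drawn alike in all 4. Only 1 run of 3 was common to all 4 lists: the domains starting at 133.9, 134 and 134.1 Mb on chromosome 5, which lay in every list between a domain of 133.7 to 133.85 Mb and one of 134.2 to 134.35 Mb.

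The longest run was that of empty vector A on chromosome 8, from 3.6 to 4.05 Mb, with 5 domains of 50 kb at a regular spacing. Empty vector B drew 3 domains over the same stretch and none of the 5, and both BAF47 lists drew none there, since the stretch lay inside 1 domain, 2.5 Mb long in BAF47 A and 3.7 Mb long in BAF47 B. The longest run of BAF47 A held 4, from 37 to 37.35 Mb on chromosome 2 (1 of 2 that long). Empty vector B and BAF47 B kept its first and last domain and drew 37.1 to 37.25 Mb as 1 domain, while empty vector A drew 37 to 37.1 Mb and 37.15 to 37.3 Mb. The longest of BAF47 B also held 4, from 201.45 to 201.8 Mb on chromosome 1 (the first of 3 that long). Empty vector A had the same 4, and empty vector B and BAF47 A joined the last 2 into a domain of 201.65 to 201.8 Mb. In empty vector B the longest runs held 3 (15 of them), the first at 27 to 27.25 Mb on chromosome 1. It was complete in empty vector A and BAF47 B, and in BAF47 A its last 2 members were 1 domain of 27.1 to 27.25 Mb.

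Joining of an adjoining pair into 1 domain of 150 kb was counted over all such pairs. Between 156 and 198 pairs were listed per sample. Looked up in the other list of the same vector, 51.4% ± 5.78 (SD over 4 ordered pairs of lists) had both members, 21.5% ± 4.10 had 1 of them, and 7.44% ± 1.00 were exactly 1 domain of 150 kb with the same outer edges. Looked up in the lists of the other vector, the values were 46.6% ± 4.20, 24.0% ± 3.66 and 8.52% ± 0.91 (SD over 8 ordered pairs of lists). These pairs of lists share samples, each enters in both directions, and no test was made on them.

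The sides of the 50 kb domains, that is the unlisted stretches that part them from the next domain, were longer than those of larger domains. A side of 150 kb or more was found for 27.2% of the members of empty vector A, 27.9% of empty vector B, 25.2% of BAF47 A and 24.3% of BAF47 B. The 100 kb domains had one in 17.3%, 18.8%, 18.3% and 16.8%. The ranges did not overlap, and the 50 kb class was higher in 4 of 4 lists by 8.34 points ± 1.37 (SD over lists, exact sign-flip test, p = 0.13, the smallest possible). Since 42.8% to 44.7% of the members of each list stood at positions shared by all 4, the lists partly repeat the same domains. Long sides on both flanks were found for 9.01%, 8.44%, 6.92% and 6.80% of the members, against 2.58%, 2.66%, 2.62% and 2.43% of the 100 kb domains. That difference was 5.22 points ± 1.06, again in 4 of 4 lists (exact sign-flip p = 0.13).

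Between the vectors, long sides were less frequent in both BAF47 lists. A side of 150 kb or more was found for 27.6% ± 0.49 of the members with the empty vector and 24.8% ± 0.61 with BAF47 (SD, n = 2 each), a difference of -2.78 points (exact permutation p = 0.33, the smallest that 2 against 2 allow). Members with long sides on both flanks numbered 107 and 98 in empty vector A and B, and 79 and 81 in BAF47 A and B (8.73% ± 0.41 against 6.86% ± 0.08, exact permutation p = 0.33). The groups did not overlap on either measure. In the 100 kb class the vectors overlapped, with 17.3% and 18.8% against 18.3% and 16.8% for a long side. Over all domains of 100 kb or more they did not overlap, with 20.7% and 21.6% against 20.5% and 19.8% for a long side and 2.68% and 2.67% against 2.52% and 2.50% for both sides, so the direction was not confined to the 50 kb class. Unlisted stretches of 1 Mb or more, which are a property of the whole list, moved with these values: 29 and 29 with the empty vector, 20 and 19 with BAF47. Beside such a stretch lay 21 and 23 members with the empty vector and 17 and 14 with BAF47. The part of the unlisted stretches and of library depth in the difference was not tested.

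**Figure D3:**
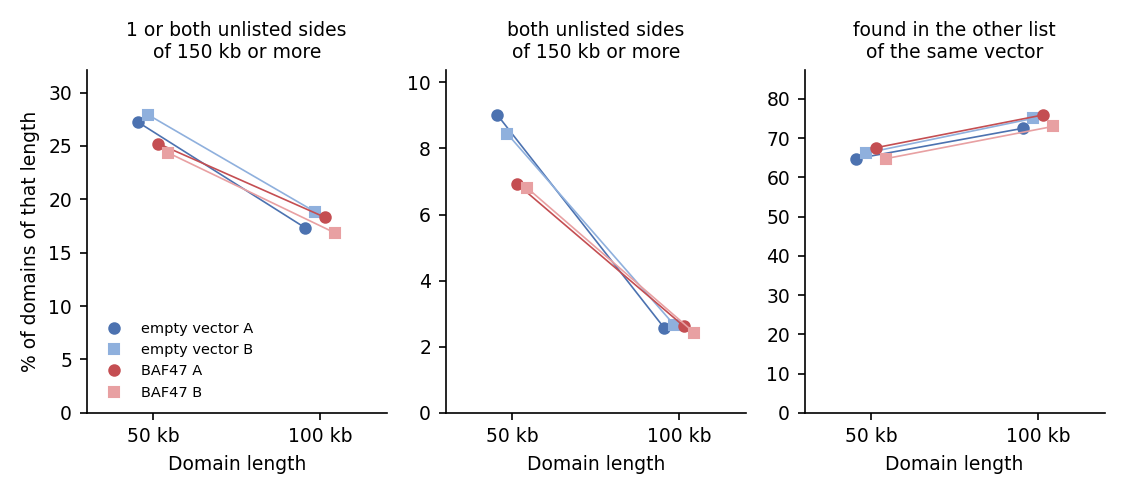
For domains of 50 kb and of 100 kb (horizontal axis), the panels give the percent of domains (vertical axis, from 0) with at least 1 unlisted side of 150 kb or more, with both sides that long, and found at the same position in the other list of the same vector, each list being a pair of points joined by a line. All 4 lines fall from 50 kb to 100 kb for the sides (means 26.2% to 17.8% and 7.79% to 2.57%) and all 4 rise for recurrence (65.9% to 74.1%).

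Recurrence was partial. Of the 2083 distinct positions, 821 (39.4%) held a 50 kb domain in 1 list, 436 (20.9%) in 2, 316 (15.2%) in 3 and 510 (24.5%) in all 4. The 100 kb domains recurred more: of 1825 positions, 579 (31.7%) were in 1 list and 643 (35.2%) in all 4. Within each list the view was even. Members present in all 4 lists made up 43.0% of empty vector A, 43.9% of empty vector B, 44.7% of BAF47 A and 42.8% of BAF47 B. Present only in their own list were 208, 204, 198 and 211 members. Recurrence in all 4 lists was highest on chromosome 16 (20 of 53 positions, 37.7%) and lowest on chromosome 21 (2 of 22, 9.09%), with 14 of 110 (12.7%) on chromosome 4.

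Among the 436 positions in exactly 2 lists, the pairs of lists of 1 vector shared more than any mixed pair. The 2 empty vector lists alone shared 110 and the 2 BAF47 lists alone shared 95, whereas the 4 mixed pairs shared 60, 65, 41 and 65. From one list to the other of the same vector, 64.8% to 67.6% of the members were found again (65.9% ± 1.34, SD over 4 ordered pairs). To a list of the other vector it was 60.6% to 63.6% (62.0% ± 1.00, SD over 8 ordered pairs). The ranges did not overlap, but each shared count enters in both directions with a different total, the pairs share samples, and they carry no test. For 100 kb domains the ranges were 72.5% to 75.9% and 68.9% to 73.0%.

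**Figure D4:**
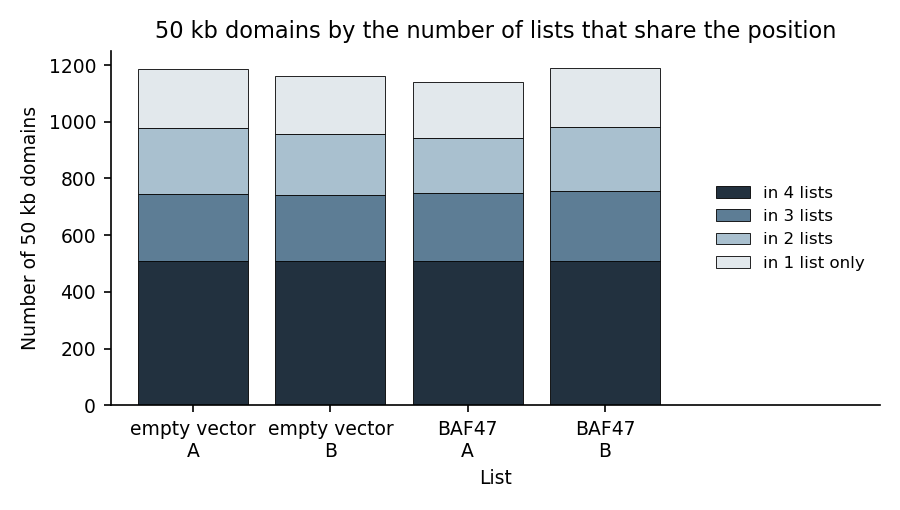
The bars give the number of 50 kb domains per list (vertical axis, 0 to about the 1191 of BAF47 B), divided by the number of lists that hold a 50 kb domain at the same aligned position, with 1 bar per list. The darkest part, present in all 4 lists, is 510 domains in each bar, and the lightest, present in 1 list only, runs from 198 to 211.

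Recurrence went with the surroundings. Members whose sides were both 50 kb were found in the other list of their vector in 69.1% ± 1.67 (SD, n = 4 lists), those with 1 long side in 60.4% ± 4.65, and those with both sides of 150 kb or more in 48.8% ± 3.80. The first class exceeded the last by 22.3, 18.7, 17.9 and 22.4 points in empty vector A, empty vector B, BAF47 A and BAF47 B. Lists of 1 vector share the domains found in both, so that these 4 values are not independent and recurrence carries no test. Of the members with both sides long, 31.7% ± 4.31 were in 1 list only, against 14.8% ± 1.47 of those with both sides of 50 kb. Domains of 100 kb showed the same order, at 75.6% ± 1.90, 68.1% ± 1.76 and 63.0% ± 3.55, so it was not particular to the 50 kb class. The gap to the 100 kb class was also present among domains with both sides of 50 kb. There, the difference in recurrence in the other list of the vector, 50 kb minus 100 kb, was -6.53 points ± 1.09, below 0 in 4 of 4 lists. Members that stood alone were found again in 67.2% ± 1.17, members of runs of 2 in 64.5% ± 4.19 and members of runs of 3 or more in 56.8% ± 7.11. That order did not hold in every list, since members standing alone exceeded those in runs of 3 or more in 3 of 4 lists.

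What the other lists drew where a 50 kb domain was missing was most often a longer domain. Over the 8 ordered pairs between vectors, 70.3% ± 2.39 of the members that were not found again lay inside a longer domain and 29.7% ± 2.39 were unlisted. Within a vector the values were 68.4% ± 1.38 and 31.6% ± 1.38 (SD over 4 ordered pairs). The longer domain varied in size. Its median length was 200 kb in each of the 8 pairs between vectors, and it was 100 kb long, so that the member had gained 1 bin, in 32.3% ± 2.57. It held no other domain of the first list in 40.1% ± 3.03, 1 other in 45.4% ± 4.88 and 2 or more in 14.5% ± 4.17. Both its outer edges were edges of the first list in 36.7% ± 5.41.

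Members taken over by a longer domain lay mostly at its edge. Of all empty vector members looked up in a BAF47 list, a mean of 61.8% were the same domain, 9.43% were the first bin of a longer domain, 10.5% the last bin, 7.55% lay in its interior and 10.7% were unlisted. For BAF47 members looked up in an empty vector list, the means were 62.2%, 10.8%, 10.7%, 4.46% and 11.8%. Within a vector they were 65.9%, 9.17%, 9.19%, 4.98% and 10.8%. First and last bins were about equal in each case, and the largest gap between the directions was in the interior.

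In the interior of a longer BAF47 domain lay 95 members of empty vector A in BAF47 A and 95 in BAF47 B, and 81 and 84 members of empty vector B. The other way, 50 members of BAF47 A lay in the interior of a domain of empty vector A and 57 of empty vector B, and for BAF47 B the counts were 49 and 52. As a mean over both lists of the other vector, this was 8.0% and 7.11% for empty vector A and B, and 4.68% and 4.24% for BAF47 A and B. The groups did not overlap (7.55% ± 0.63 against 4.46% ± 0.31, SD, n = 2 each), with no test, since the lists of both vectors enter each value. The same share is not given here for 100 kb domains or for all domains, so the gap cannot be called particular to the 50 kb class. Looked up in the other list of their own vector, the 4 lists of members were close, at 5.39%, 4.74%, 4.99% and 4.79%. The share in the other vector minus that in the own vector was 2.61 and 2.37 points for empty vector A and B, and -0.31 and -0.55 points for BAF47 A and B. Chromosomes 4 and 8 held the most empty vector members in a BAF47 interior, with means of 11 and 8, and 5 and 4 the other way. On chromosome 1, which held the most the other way, the means were 6 and 7. Without chromosomes 4 and 8, a choice made after seeing the data, the means were 6.58% and 4.07%. Bins in the interior of any domain were 58.8% and 58.8% of all bins with the empty vector and 59.4% and 59.5% with BAF47, a difference in the same direction whose part was not tested.

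Domains of 1 Mb or more showed the same direction. In a domain of 1 Mb or more lay 38 and 49 members of empty vector A in BAF47 A and B, and 36 and 45 of empty vector B. For BAF47 A the counts in empty vector A and B were 16 and 19, and for BAF47 B they were 11 and 6. As means over both lists of the other vector these were 3.58% ± 0.12 against 1.12% ± 0.58 (SD, n = 2 each). That SD leaves out the spread between the lists looked up. No test is given, since the lists of both vectors enter each value. Within a vector the counts were 27 and 27 with the empty vector and 22 and 13 with BAF47. Domains of 1 Mb or more numbered 403, 402, 404 and 411 in the 4 lists and held 30.1%, 29.9%, 30.5% and 31.1% of the bins. Both values were slightly higher in both BAF47 lists, and their part in the difference was not tested. Here too, no such counts are given for 100 kb domains.

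**Figure D5:**
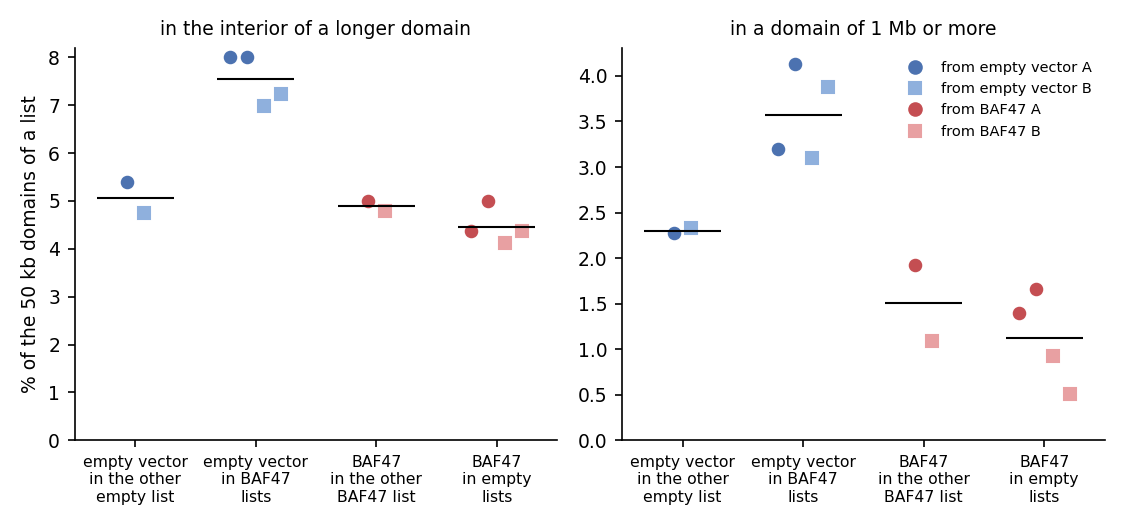
Each point is 1 ordered pair of lists and gives the percent of the 50 kb domains of the first list (vertical axes, from 0) that lie in the interior of a longer domain of the second list (left) or in a domain of 1 Mb or more (right), grouped by vector and by which vector was looked up (horizontal axes), with a line at the mean. Empty vector members in BAF47 lists stand highest in both panels, at 6.98% to 8.0% on the left, against 4.11% to 4.99% for BAF47 members in empty vector lists.

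Members with long sides differed most between the directions. Of empty vector members with both sides of 150 kb or more, 25.8% (21.4% to 29.0% over 4 ordered pairs) lay in the interior of a longer BAF47 domain, 38.0% were the same domain and 27.2% were unlisted. Of such BAF47 members, 7.17% (5.06% to 9.88%) lay in the interior of an empty vector domain, 48.8% were the same and 32.8% were unlisted. Within a vector the interior share was 12.6% with the empty vector and 12.5% with BAF47. With 1 side of 150 kb or more, the interior shares in the other vector were 13.2% and 8.73%, and where both sides were 50 kb they were 3.86% and 3.20%. The gap between the directions was thus widest for members with both sides long and narrow for closely packed ones. The class with both sides long was small, with 107 and 98 members in empty vector A and B and 79 and 81 in BAF47 A and B.

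Positions kept in both lists of a vector were then compared with the other vector. Of 769 positions in both empty vector lists, 510 (66.3%) were in both BAF47 lists too and 110 (14.3%, 95% Wilson interval 12% to 17.0%) were in neither. Over domains of all lengths the latter share was 10.4%. Of 772 positions in both BAF47 lists, 510 (66.1%) were in both empty vector lists and 95 (12.3%, interval 10.2% to 14.8%) were in neither, against 10.5% over all lengths. For 100 kb domains the shares were 8.88% (75 of 845) and 9.30% (81 of 871). The intervals cover counting error only. They take positions as independent, which positions in the same domain are not, so no call is made from them. With both vectors the share for 50 kb domains was higher than that for all lengths, which includes the 50 kb domains. That difference was not tested. The 50 kb share of each vector lay inside the interval of the other. The intervals hold no spread between samples, and 510 positions enter both totals, so they cannot decide whether the vectors differ.

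The replacement of these positions was alike in kind for both vectors. A longer domain stood in both lists of the other vector for 80 of the 110 empty vector positions (72.7%) and for 69 of the 95 BAF47 positions (72.6%). Both lists of the other vector left the position unlisted for 22 and 19, and 8 and 7 were mixed. The replacing domain was identical in both lists for 49 and 52. A shift of the 50 kb domain by 1 bin was found for 5 and 4. The position was the first bin of the longer domain in both lists for 24 and 23, its last bin for 24 and 29, and in its interior for 22 and 9. The 22 lay on 13 chromosomes, 6 of them on chromosome 4 and 3 on chromosome 8. Of the 110, 8 lay in BAF47 domains of 1 Mb or more in both lists, in 6 distinct domains of BAF47 A. Of the 95, none lay in an empty vector domain that long in both lists. For 95 positions that allows a share of up to 3.16%, if they are taken as independent, which positions in the same domain are not.

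The 6 empty vector positions with the longest replacing domains lay on chromosomes 4, 5, 8 and 13. At 24 to 24.05 Mb on chromosome 5, both empty vector lists drew a 50 kb domain. BAF47 A covered it with 1 domain from 23.8 to 29.95 Mb (6.15 Mb) and BAF47 B with 1 from 22.2 to 29.95 Mb (7.75 Mb). Within the longer span empty vector A drew 6 domains, 4 of them 50 kb long, and empty vector B drew 8, of which 7 were 50 kb long. Empty vector A also drew a long domain there, from 24.1 to 26.65 Mb. BAF47 A drew 50 kb domains in that span too, at 22.4, 22.9 and 23.4 Mb. Those at 22.9 and 23.4 Mb were also in empty vector A, so the BAF47 lists differed from each other before 23.8 Mb. The left side of the member was 550 kb long in empty vector A and 950 kb in empty vector B. At 40 to 40.05 Mb on chromosome 13, the member stood between unlisted sides of 850 kb and 550 kb in both empty vector lists. Both BAF47 lists drew a single domain of 34.75 to 40.9 Mb there, where each empty vector list drew 4, among them one of 35.3 to 39.15 Mb.

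On chromosome 4, 3 of the 6 positions lay together, at 113, 113.1 and 113.3 Mb. BAF47 A drew 112.45 to 116 Mb and BAF47 B 112.45 to 115.95 Mb as 1 domain. In that span empty vector A drew 10 domains, 5 of them of 50 kb, and empty vector B drew 6, 4 of them of 50 kb. Both empty vector lists shared these 3 members and parted beyond them, since empty vector B drew 113.75 to 115.95 Mb as 1 domain and empty vector A drew 6 domains there. The last of the 6, at 4.4 to 4.45 Mb on chromosome 8, lay near the run of 5 described above. BAF47 A drew 2.35 to 4.85 Mb and BAF47 B 2.35 to 6.05 Mb, whereas both empty vector lists drew 2.35 to 3.4 Mb, 4.65 to 4.8 Mb and 4.85 to 6.05 Mb, with several 50 kb domains between.

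Of the 6 BAF47 positions with the longest replacing domains, 4 were the last bin of the replacing domain. At 38.7 to 38.75 Mb on chromosome 14, the empty vector lists drew 1 domain, of 0.9 Mb in A and 0.85 Mb in B. Both BAF47 lists ended a shorter domain at 38.65 Mb and drew the member after it. At 166.8 to 166.85 Mb on chromosome 6, both empty vector lists drew 166.75 to 167.4 Mb. Both BAF47 lists drew the member, then 166.9 to 167.15 Mb and 167.2 to 167.4 Mb.

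At 38.65 to 38.7 Mb on chromosome 10 both empty vector lists drew 38.05 to 38.7 Mb. Both BAF47 lists drew the same 4 domains within those outer edges, 38.05 to 38.2, 38.25 to 38.35, 38.4 to 38.6 and the member. At 124.4 to 124.45 Mb on chromosome 7, the empty vector domain of 123.85 to 124.45 Mb became 3 domains in BAF47 A, 2 of them of 50 kb, and 2 in BAF47 B. The member at 23.7 to 23.75 Mb on chromosome 13 was the last bin of an empty vector domain of 23.2 to 23.75 Mb, and both BAF47 lists drew 23.25 to 23.65 Mb beside it. At 11.75 to 11.8 Mb on chromosome 11 the empty vector lists disagreed, with a replacing domain of 11.7 to 11.8 Mb in A and of 10.85 to 11.8 Mb in B. There, BAF47 A and B drew the same 3 domains, and empty vector A differed from them by the placing of 1 border by 1 bin. The longest mean length of a replacing domain was 6950 kb for the empty vector positions and 875 kb for the BAF47 positions, while the medians were close, at 212.5 kb and 200 kb.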

How the data were processed

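Hi-C libraries of 4 samples, 2 per vector, had been reduced by the authors to 1 deposited list of domains each, which gives each domain's chromosome, start and end in bases and no other value. Their unit is a position on a 50 kb grid (neither a count nor a score), in build hg18 per the submitters' processing notes. The aligner, the domain caller, the filters and the resolution were not given in the sources used here, and the letters were not pooled.

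The members and lists were chosen with earlier results of these data known. From the lists, members were taken by length, and their neighbours, sides, runs, recurrence and replacement in the other lists were counted. Numbering was aligned to empty vector A by a Viterbi path over the edges of domains of 100 kb or more, with offsets of up to 3 bins, a cost of 10 matches per change and blocks of at least 10 matches. Ends were added to the starts after the data were seen, since starts alone placed the step less sharply. Vectors were compared over samples by permuting their labels (exact test, two-sided, 6 assignments), and the 50 kb with the 100 kb class by an exact sign-flip test over the 4 lists, which is not given for recurrence because the lists of a vector share the domains found in both. In the other comparisons the lists share domains too, and the sign-flip test does not allow for that. Intervals are 95% Wilson intervals. The code was tested on simulated lists with planted members and steps.

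The regions named were, by rule, the 6 positions per vector with the longest replacing domains, the longest run of each list, the 5 windows of 2 Mb with the most members, the 3 chromosomes with the highest and the 3 with the lowest mean share, and chromosomes 9 and 20. The run common to all 4 lists, the joined pairs and chromosomes 7, 11 and 16 were singled out after their values were seen. Python 3.11.15, numpy 2.4.6, scipy 1.17.1 and matplotlib 3.10.9 were used. Sequences were not used here, because the positions are not those of the build.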

Additional observations from a re-analysis of the deposited data

How the results depend on the processing

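Of 87 alternative values, 13 moved by more than the spread between replicates or by over 1.5 times, and 7 changed sign, all of them differences between vectors that carry no call. Overlap between vectors was 59.4% as listed and 63.2% when a shift of 1 bin counted as the same, against 62.0%. As listed, overlap within minus between vectors was 5.64 points against 3.84, and positions of 1 vector only numbered 133 against 110 for the empty vector and 112 against 95 for BAF47. With no unlisted bin allowed between neighbours, the share with a 50 kb neighbour was 0, because no listed domains touch, and allowing 2 unlisted bins changed nothing, because no stretch of 100 kb exists. Without chromosomes 4 and 8, the share in the interior of a longer domain of the other vector was 6.58% for empty vector and 4.07% for BAF47 members.

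Leaving out each replicate in turn, the difference in number (BAF47 minus empty vector) ran from -32 to 17 and changed sign without empty vector A and without BAF47 A, and it was 17 for domains of up to 100 kb. The difference in the share with a 50 kb neighbour ran from -0.98 to 3.10 points and that in runs from -10.5 to 16.5, and both changed sign without empty vector B and without BAF47 B (-0.98 and -0.91 points, -6.5 and -10.5 runs). The difference in long sides stayed below 0, from -3.21 to -2.34 points, and the interior shares stayed at 7.11% to 8.0% and 4.24% to 4.68%. Positions of 1 vector only rose to between 181 and 318 for the empty vector and 177 and 306 for BAF47, since fewer lists then have to hold or lack them.

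With the letters as a replicate block, the paired differences in number were -45 for A and 30 for B (mean -7.5), those in neighbours -2.95 and 5.07 points (mean 1.06), and those in long sides -1.99 and -3.56 points (mean -2.78, exact sign-flip p = 0.5, the smallest that 2 pairs allow). The block was computed for these 3 results, and the labels do not say that the letters pair the samples. Depth could not be weighed, since the lists hold no counts.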
